A study of Mus musculus with 1528 samples.

Results

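*H2-M2*, a non-classical MHC class I heavy chain gene, stood at about 1 CPM or less in macrophages treated with IL4+IL13 and above 100 CPM when TNF was added, whereas the classical heavy chains *H2-K1* and *H2-D1* were abundant in every cell under both treatments and differed far less. CPM are a gene's fragment counts scaled to the same total in every sum or cell. The gene is described here beside 9 other genes of the class I pathway: the heavy chains *H2-K1*, *H2-D1* and *H2-M3*, the light chain *B2m*, the peptide transporter subunits *Tap1* and *Tap2*, the loading factor *Tapbp*, and the immunoproteasome subunits *Psmb8* and *Psmb9*. They are 10 of the 55421 genes in the table of counts, and all 10 were among the 17034 genes that could be tested. The genes were chosen from measured values of the same libraries, their levels and shares of cells by treatment and plate, so these values are given as a description with no p-value.

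The cells were macrophages derived from bone marrow (BMDMs) of wild-type animals, labelled C57BL/6 and named as male C57BL/6J in the study's methods, grown with M-CSF, the growth factor that turns marrow precursors into macrophages. All cells received IL4 and IL13, cytokines of alternative (M2) activation, for 24 h at 10 ng/ml each, and one group received TNF at the same dose in addition. A group without cytokines was not analysed here, so every comparison is of TNF against no TNF on an IL4+IL13 background. Live single cells of 2 mice were sorted into 4 plates, 2 plates per mouse, and on each plate rows A to H held IL4+IL13 cells and rows I to P held IL4+IL13+TNF cells, so that plate position and treatment cannot be told apart. Smart-seq2 libraries, which cover whole transcripts and carry no molecular identifiers, were made, and 1386 wells passed the quality filter while 138 did not. Mouse 1 gave 357 of the kept cells without TNF and 347 with it, and mouse 2 gave 333 and 349. Kept cells had a median of 447264 to 490310 fragments per mouse and treatment, and the 4 sums of cells held 162260282 to 179757666 fragments. No 2 wells shared both their total and their number of detected genes. All 8 macrophage markers examined were expressed, with a summed level of 15400 and 17000 CPM without TNF and 27500 to 28700 CPM with TNF, of which the lysozyme gene *Lyz2* made up the larger part. Summed markers of T cells, B cells, NK cells, granulocytes, fibroblasts and red cells reached at most 5.43 CPM in any sum, and those of dendritic cells 8.27 to 13.9 CPM. The NK cell genes *Ncr1* and *Gzma* were at 0 in all 4 sums. Of the treatment controls, the 4 TNF response genes were higher with TNF in both mice, the M2 genes *Retnla* and *Mrc1* were lower, and *Arg1* and *Chil3* were not.

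MHC class I molecules show peptides from inside the cell to CD8 T cells. Proteins are cut by the proteasome, in which the immunoproteasome subunits can replace constitutive ones, and the peptides are carried into the endoplasmic reticulum by the transporter TAP, a pair of Tap1 and Tap2. There tapasin, the product of *Tapbp*, helps to load them onto a heavy chain bound to beta-2 microglobulin, the product of *B2m*. H2-K and H2-D are the classical, highly variable heavy chains of the C57BL/6 mouse. H2-M3 is a non-classical chain known for presenting N-formylated peptides, as found in bacteria. H2-M2 is another non-classical chain of the H2-M region, whose function is less well known. Most genes of the pathway lie in the MHC on mouse chromosome 17, and *B2m* lies on chromosome 2.

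The promoters of *H2-M2*, of the classical heavy chains and of *B2m* are shown so that their letters can be compared, since classical class I promoters are known to carry a kappaB element. Windows of 250 bases before to 50 bases after the transcription start, from RefSeq on GRCm38.p6, the build called mm10, matched 9 of the 10 genes, with no entry for *Tap2*. The windows below are chr17:37483505-37483804 for *H2-M2* and chr17:34000284-34000583 for *H2-K1*, both on the minus strand, chr17:35262844-35263143 on the plus strand for *H2-D1*, and chr2:122147437-122147736 on the plus strand for *B2m*. Capitals mark matches on either strand to the motifs searched.
H2-M2: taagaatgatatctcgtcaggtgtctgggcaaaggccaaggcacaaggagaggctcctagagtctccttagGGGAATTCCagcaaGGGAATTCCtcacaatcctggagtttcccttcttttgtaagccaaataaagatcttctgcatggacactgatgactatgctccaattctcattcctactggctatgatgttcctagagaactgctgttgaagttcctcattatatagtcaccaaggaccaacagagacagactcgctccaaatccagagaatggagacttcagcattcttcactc
H2-K1: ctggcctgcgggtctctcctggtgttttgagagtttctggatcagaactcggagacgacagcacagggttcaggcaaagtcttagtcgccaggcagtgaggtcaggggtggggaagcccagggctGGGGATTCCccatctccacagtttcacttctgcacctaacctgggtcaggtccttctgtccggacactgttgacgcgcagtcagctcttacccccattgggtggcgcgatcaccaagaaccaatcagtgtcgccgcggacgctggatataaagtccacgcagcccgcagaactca
H2-D1: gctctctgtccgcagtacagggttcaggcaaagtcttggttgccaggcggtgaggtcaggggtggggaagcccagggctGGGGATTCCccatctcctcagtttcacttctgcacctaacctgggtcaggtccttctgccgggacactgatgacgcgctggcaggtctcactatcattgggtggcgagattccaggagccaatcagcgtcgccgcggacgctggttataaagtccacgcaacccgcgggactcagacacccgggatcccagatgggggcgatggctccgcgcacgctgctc
B2m: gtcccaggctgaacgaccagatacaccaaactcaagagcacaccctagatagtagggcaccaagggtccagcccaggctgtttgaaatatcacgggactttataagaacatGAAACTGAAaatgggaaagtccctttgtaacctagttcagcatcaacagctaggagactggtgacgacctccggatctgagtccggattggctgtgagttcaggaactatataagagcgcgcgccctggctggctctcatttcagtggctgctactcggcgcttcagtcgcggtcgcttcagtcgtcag

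The kappaB-like motif GGGNNTTCC stood in the windows of 3 of the 9 genes, *H2-K1*, *H2-D1* and *H2-M2*, and in 5.82% of all 32851 promoters of the same length. The classical genes shared the same letters, GGGGATTCC, 125 bases before the start in *H2-K1* and 171 bases before it in *H2-D1*. *H2-M2* held the motif at 2 places, both reading GGGAATTCC, at 179 and 165 bases before the start. *H2-M3*, the other non-classical gene, held no match to it. The interferon-response-like motif GAAANNGAA stood in the window of *B2m* only, against 8.56% of all promoters, and the GAS motif TTCNNNGAA, bound by STAT factors, in those of *H2-M3* and *Psmb8*, against 8.3%. The STAT6-type motif TTCNNNNGAA, a form preferred by the IL4-activated factor, stood in none of the 9, against 6.95% of all promoters. The motifs do not overlap one another in these windows, and a match is only a match of letters. Only these exact patterns were searched, so forms of the same elements with another length or other letters are not marked. A window without a match, that of *B2m* for kappaB or those of the heavy chains for the interferon-response-like motif, may still hold such a form. The windows of *Psmb9* and *Tap1*, which start on opposite strands 226 bases apart, share 275 bases.

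*H2-M2* differed most between the treatments. Its level in the summed cells was 0.402 CPM in mouse 1 and 1.08 CPM in mouse 2 without TNF, and 139 CPM and 117.5 CPM, respectively, with it. Both TNF sums lay far above both sums without it, with means of 128 ± 15.2 CPM against 0.741 ± 0.479 CPM (SD, n = 2 mice). The fitted log2 difference was 7.44 ± 0.60 (edgeR, SE derived from its test statistic). Among the plates, *H2-M2* stood at 0.235, 0.557, 0.361 and 1.90 CPM without TNF and at 149, 130, 111 and 123 CPM with TNF on plates 2 to 5. Within a plate the log2 difference was 5.69 to 7.67 with 0.5 CPM added to each value, which lowers it at such low control levels. Log2 differences within plates or mice given below carry the same addition. The gene spans chr17:37480851-37483552 on the minus strand, overlaps no other gene, and shares 1.67% of the 50-base stretches of its transcript with other genes.

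The size of the ratio in mouse 2 rested on 1 cell. *H2-M2* had 73 fragments in the 357 cells of mouse 1 and 182 in the 333 cells of mouse 2 without TNF, and 123 of the 182 came from 1 cell in row B of plate 5, at 384 CPM. The ratio of TNF to no TNF was 346 in mouse 1 and 109 in mouse 2. Without the highest control cell of each mouse it was 366 and 336, and the level in mouse 2 without TNF was 0.35 CPM. With TNF the gene had 21602 and 20605 fragments, and no single cell held more than 8.22% of them.

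**Figure D1:**
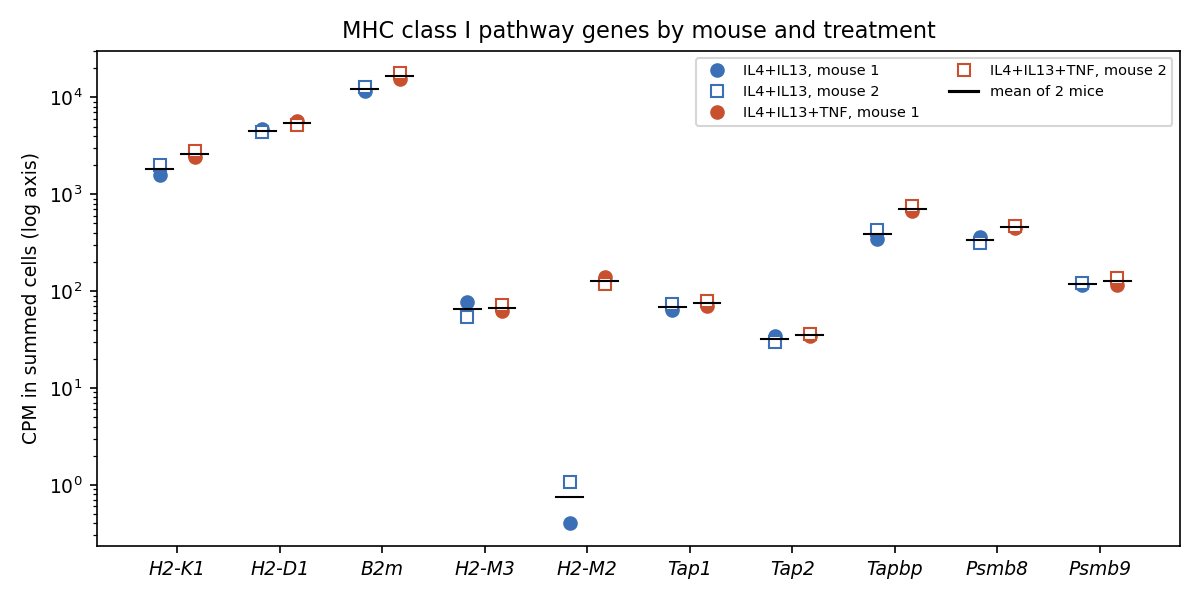
CPM of each gene in the summed cells of each mouse (log axis), IL4+IL13 in blue and IL4+IL13+TNF in red, filled circles for mouse 1 and open squares for mouse 2, with the mean of the 2 mice as a line. *H2-M2* lies at 0.402 and 1.08 CPM without TNF and at 139 and 117.5 CPM with it, while the pairs of every other gene lie close together.

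The high level was carried by a part of the cells. At an equal depth of 339000 fragments per cell, *H2-M2* was found in 11.7% (95% exact interval 8.49 to 15.7) and 7.12% (4.5 to 11) of cells without TNF, and in 48.2% (42.4 to 54.0) and 39.2% (33.7 to 44.9) of cells with TNF, in mouse 1 and mouse 2. Intervals cover counting error only. The shares before thinning were 16.2% and 11.4% without TNF and 51.0% and 44.4% with it. For comparison, *Cd3e*, a T cell gene that macrophages lack, was found in 0.647% to 1.2% of cells, and *Cd79a*, a B cell gene, in at most 0.971%. These genes were near 0 under both treatments, so their shares do not measure *H2-M2* fragments carried over from TNF wells of the same plate, and the part of such fragments in the cells without TNF was not tested. At least 5 fragments were found in 0 of 332 cells (upper limit 1.10%) and in 0.324% of cells without TNF, and in 28.7% and 24.2% of cells with TNF.

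On plates 2 to 5 the share of cells with *H2-M2* was 6.02%, 17.5%, 5.56% and 8.84% without TNF and 48.4%, 48.0%, 37.2% and 41% with TNF. Plate 3 was the highest without TNF, yet no plate without TNF reached any plate with it. By plate row the share ran from 3.37% to 14.9% over rows A to H and from 31.9% to 61.8% over rows I to P, so that the rows next to each other at the border, H and I, stood at 9.20% and 45.1%.

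Among TNF-treated cells the level of *H2-M2* spread widely. The median cell had 1.52 CPM in mouse 1 and 0 CPM in mouse 2, the cell at the 90th percentile 425 and 418 CPM, and the highest cell 3050 and 3260 CPM. The top 18 cells of each mouse held 60% and 61.8% of all *H2-M2* fragments. More than 100 CPM was reached by 63 of 347 cells (18.2%) and 58 of 349 cells (16.6%) with TNF, and by 0 and 1 cell without it. This spread was not shared by *H2-K1*, for which the top 18 cells with TNF held 13.1% and 13% of fragments and the 90th percentile was only 2.34 and 2.46 times the 10th percentile. *Clec4e*, a receptor gene, was the 1 gene called over all genes by edgeR on the 4 sums with treatment as the only term. With the mouse as a block 651 genes were called. *Clec4e* was found in 91.4% and 92.2% of TNF-treated cells at the same depth. Of these cells, 147 and 172 had *Clec4e* but no *H2-M2* fragment, and 16 and 10 had *H2-M2* without *Clec4e*.

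**Figure D2:**
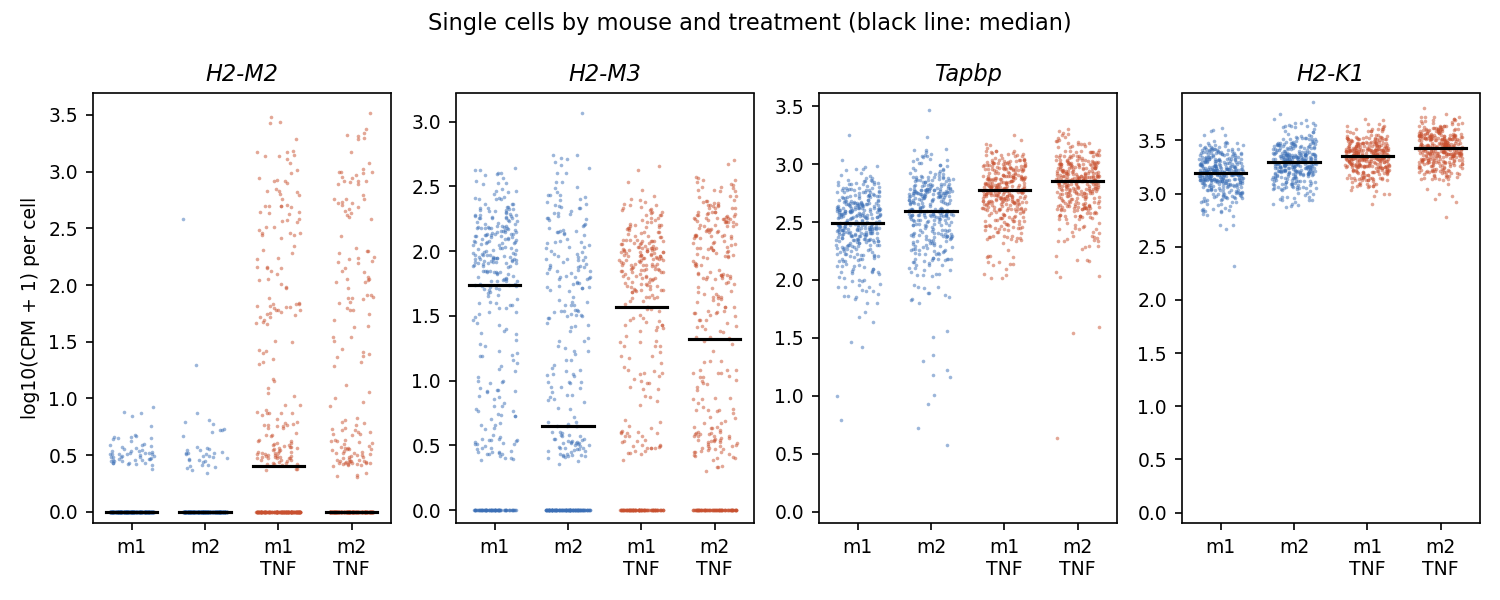
Level in each kept cell as log10(CPM + 1) for 4 of the genes, by mouse (m1, m2) without TNF (blue) and with TNF (red), with a line at the median. *H2-M2* runs from 0 up to 3260 CPM among TNF-treated cells, *H2-M3* is found in most cells of all groups, and *Tapbp* and *H2-K1* are found in nearly all cells.

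*H2-M3*, the other non-classical heavy chain, did not follow *H2-M2*. It stood at 77.7 and 53.6 CPM without TNF and at 62.1 and 71.8 CPM with TNF in mouse 1 and mouse 2, and the groups overlapped. Its log2 difference was 0.03 ± 0.25. The direction differed by mouse, with log2 differences of -0.46 and -0.15 on the plates of mouse 1 and of 0.45 and 0.36 on those of mouse 2. The share of cells with *H2-M3* was 75.6% and 60.5% without TNF and 69.6% and 73.5% with it, so the mice also went opposite ways in this measure. Over the 8 sums of plates and treatments the TNF difference was 0.73 ± 0.21 (SE) larger in mouse 2 than in mouse 1 on the log2 scale, given as a description because the genes were chosen on values by plate.

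The classical heavy chains were higher with TNF on all 4 plates, by a small amount. *H2-K1* stood at 1602 and 2019 CPM without TNF and at 2436 and 2831 CPM with TNF, a log2 difference of 0.54 ± 0.17. *H2-D1* stood at 4673 and 4403 CPM and at 5714 and 5172 CPM, a log2 difference of 0.26 ± 0.12. The groups did not overlap for either gene, although the sums of mouse 2 without TNF and mouse 1 with TNF lay near each other for *H2-K1*. Both transcripts were found in every cell at equal depth. Of the 50-base stretches of the *H2-K1* and *H2-D1* transcripts, 8.79% and 14.3% also occur in other genes, chiefly other class I heavy chains, and fragments that fit several places were not counted.

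*B2m*, the light chain that all these heavy chains share, was the most abundant of the 10 transcripts. It stood at 11560 and 12770 CPM without TNF and at 15540 and 17800 CPM with TNF, a log2 difference of 0.45 ± 0.12. The groups did not overlap, and the 4 plates gave 0.38 to 0.48. *B2m* lies within the span of *Patl2* on the other strand, and strand was not used in counting, so fragments of overlapping exons cannot be told apart.

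The steps of peptide supply differed among themselves. *Tapbp*, which encodes tapasin, stood at 349.6 and 429.2 CPM without TNF and at 667.9 and 758.9 CPM with TNF, 1.83 times higher on average. This was the largest difference after *H2-M2*, with a log2 difference of 0.87 ± 0.18 and 0.76 to 1.00 on the 4 plates. *Tap1* stood at 64.1 and 73.1 CPM and at 70.3 and 79.3 CPM, and its groups overlapped, with a log2 difference of 0.13 ± 0.18 that was 0.13 and 0.12 within the 2 mice. *Tap2* stood at 34.1 and 30.1 CPM and at 34.3 and 35.9 CPM, a log2 difference of 0.13 ± 0.19 that was positive on only 2 of 4 plates. With the mouse as a block the differences of *Tap1* and *Tap2* were 0.13 ± 0.11 and 0.13 ± 0.14, both well below that of *Tapbp*. *Tap1* was found in 69.3% to 75.9% and *Tap2* in 51.8% to 64.4% of cells over the 4 sets, and *Tapbp* in at least 99.7%. Of the *Tapbp* stretches, 21% occur in other genes, mostly in the antisense gene *Gm19412*, and *Zbtb22* overlaps *Tapbp* on the same strand, so a part of the counts cannot be assigned to 1 of these genes with certainty.

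Of the immunoproteasome subunits, *Psmb8* stood at 359.9 and 316.1 CPM without TNF and at 446.9 and 471.3 CPM with TNF, a log2 difference of 0.44 ± 0.15 that was positive on 4 of 4 plates. *Psmb9* stood at 115.4 and 120.7 CPM and at 117.0 and 137.5 CPM, with a log2 difference of 0.11 ± 0.17, and its groups overlapped. Relative to the constitutive subunits that they replace, neither was higher with TNF. Per length of the annotated exons, *Psmb8* was 69.4% and 81.5% of *Psmb5* without TNF and 53.1% and 70.1% with TNF. *Psmb9* was 14.8% and 19% of *Psmb6* without TNF and 9.36% and 12.3% with it. The exon lengths of *Psmb8* and *Psmb9* were 3381 and 3660 bases, against 1628 and 1352 in their longest coding transcripts. The size of these percentages depends on the length used, and their direction between treatments does not. *Psmb10*, the remaining immunoproteasome subunit, stood at 376% and 776% of *Psmb7* without TNF and at 537% and 1100% with it, higher with TNF in both mice. *Psmb9* and *Tap1* overlap by 212 bases on opposite strands, and *Psmb8* and *Tap2* both overlap *Gm20496*.

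**Figure D3:**
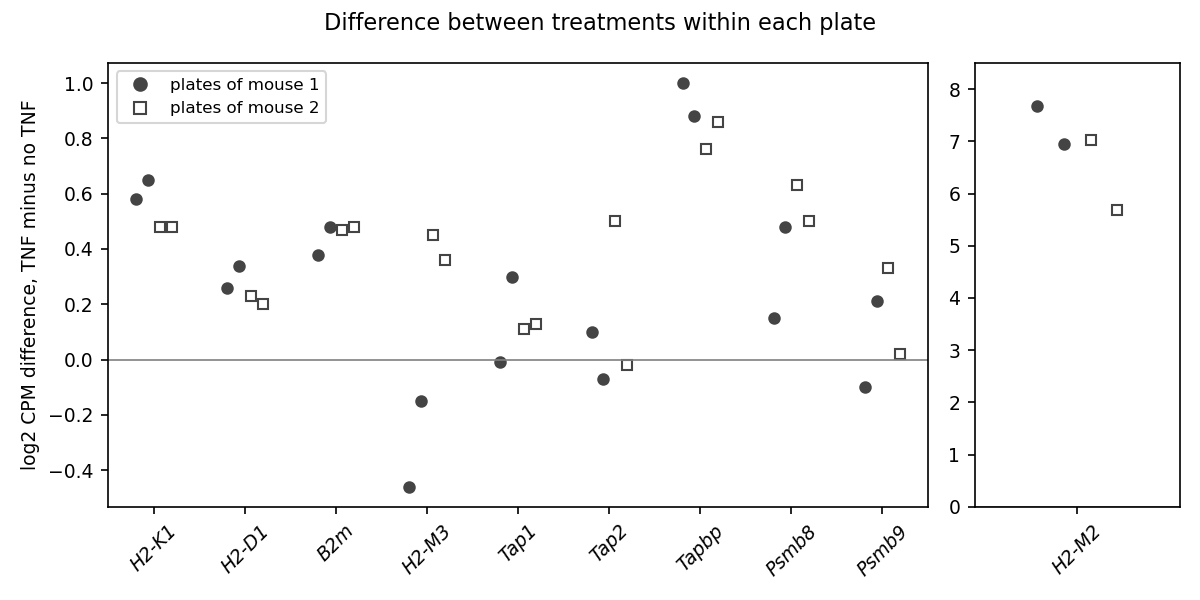
Log2 difference in CPM (0.5 CPM added) between TNF and no TNF within each of the 4 plates, filled circles for the plates of mouse 1 and open squares for those of mouse 2, with *H2-M2* on an axis of its own. *H2-M2* lies between 5.69 and 7.67 and *Tapbp* between 0.76 and 1.00, while *H2-M3* is below 0 in mouse 1 and above 0 in mouse 2.

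**Figure D4:**
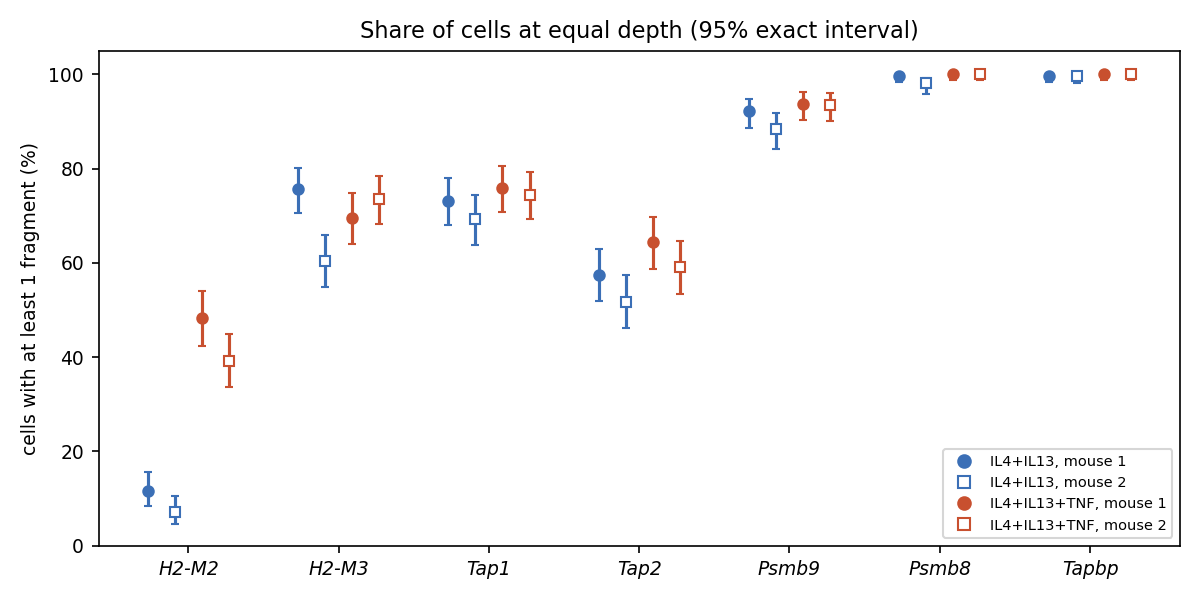
Share of cells with at least 1 fragment after thinning every cell to 339000 fragments, by mouse and treatment, with 95% exact intervals. *H2-M2* goes from 11.7% and 7.12% to 48.2% and 39.2%, and *Psmb8* and *Tapbp* are near 100% throughout. *H2-K1*, *H2-D1* and *B2m*, at 100% in all sets, are left out.

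Levels of different genes were compared per length, as TPM, in which counts are divided by the length of the annotated exons before they are scaled. This length was 3660 bases for *Psmb9* and 2938 for *H2-K1*, against 1352 and 1619 in their longest coding transcripts. For *H2-M2* it was 1551 against 1550 bases. The order of the genes and their ratios therefore depend on the length used, and no other length was tried. Without TNF the order was *B2m* (mean 29200 TPM), *H2-D1* (3620), *H2-K1* (1270), *Tapbp* (222), *Psmb8* (206), *H2-M3* (93.5), *Psmb9* (66.5), *Tap1* (25.9), *Tap2* (17.5) and *H2-M2* (0.997). *Tapbp* and *Psmb8* did not differ beyond the spread between mice without TNF, and *Psmb8* was the higher of them in mouse 1. With TNF, *H2-M2* moved from the last to the sixth place, at 166 and 143 TPM, above *H2-M3* at 79.9 and 94.2 TPM. The other 9 genes kept their order among themselves. Set against the classical chains, *H2-M2* was 0.0475% and 0.101% of the *H2-K1* level without TNF and 10.8% and 7.86% with TNF. Of the summed TPM of all class I and class I-like heavy chains, it made up 0.00947% and 0.0247% without TNF and 2.56% and 2.18% with it, while *H2-K1* and *H2-D1* together made up 84.9% to 86.8% in all 4 sums.

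Over all genes, 7 of the 10 were higher with TNF with no overlap between the mice, against 18.6% of the genes tested. The 7 include *Tap2*, whose groups were apart only by 34.08 CPM without TNF against 34.26 CPM with it, both in mouse 1. The median log2 difference of the 10 was 0.35, and that of all genes tested 0.00. The edgeR test on the 4 sums called 0 of the 10 at an adjusted p under 0.05 and 5 at an unadjusted p under 0.05, where it called 0.00587% and 8.10% of all genes. With the mouse as a block it called 4 (*H2-K1*, *H2-M2*, *B2m* and *Tapbp*), against 3.82% of all genes in either direction and 1.94% called higher. DESeq2 called 2 (*H2-M2* and *Tapbp*), against 3.51% and 1.79%. The 8 sums of plates with the plate as a block gave 6, against 9.87% and 4.72%. Since the genes were picked on this comparison, nothing is read from these counts.

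Some levels also differed between the mice, which did not share plates. Mean levels in mouse 1 and mouse 2 were 2020 and 2430 CPM for *H2-K1*, with a log2 difference of 0.28 ± 0.05 over the 8 sums of plates with treatment in the model. For *B2m* they were 13500 and 15300 CPM, with a log2 difference of 0.18 ± 0.03, and for *Tapbp* 508 and 595 CPM, with 0.25 ± 0.06. These 3 were the genes that edgeR called higher in mouse 2 at an adjusted p under 0.05, against 18.1% of all genes called and 8.91% called higher. Without plate 2, plate 3 or plate 4 the count was 0 (4, 4 and 3 of the 10 at an unadjusted p under 0.05), and without plate 5 it was 2. The shares of all genes called in these fits are not given here. For the interaction of mouse and treatment, edgeR called 0 of the 10 and 0.0% of all genes, with 1 of the 10 and 6.06% of all genes at an unadjusted p under 0.05, and DESeq2 called 0 of the 10 and 0.781% of all genes. Each plate belongs to 1 mouse and the genes were chosen on values by plate, so nothing is read from these counts either.

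Across single cells the classical chains and their light chain varied together. Spearman correlations were computed within each mouse and treatment over 303 to 332 cells of equal depth and averaged over the 4 sets, as a description of cells that share a library preparation and differ in their content of all RNA. Of the 10114 genes compared, those most like *H2-K1* were *B2m* (mean rho 0.45), *H2-D1* (0.37), *Itm2b* (0.25), *H2-Q4* (0.24) and *Tapbp* (0.23). For *H2-M2* the highest values were 0.13 for *H2-Aa*, 0.12 for *Fbxo28* and *H2-Eb1*, and 0.11 for *H2-Ab1* and *Csf2rb*, against a range of -0.05 to 0.05 for the middle 90% of genes. Of these genes, *H2-Aa*, *H2-Eb1* and *H2-Ab1* encode MHC class II chains, but such low values in sparse counts are no finding. Among the 45 pairs of the 10 genes the median rho was 0.09 and 8 pairs were above 0.20, the highest of them *H2-D1* with *B2m* (0.49). *H2-M2* correlated with the other 9 at -0.02 to 0.08 over the 4 sets, of which those without TNF held few cells with a fragment of it. With TNF its rho in mouse 1 and mouse 2 was 0.17 and 0.07 with *B2m*, 0.10 and 0.14 with *H2-D1*, 0.08 and 0.09 with *H2-K1* and 0.14 and 0.12 with *H2-M3*, low but positive values. The immunoproteasome subunits *Psmb8* and *Psmb9* reached 0.24.

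The rest of the pathway was examined with 7 lists of 88 genes, of which 76 could be tested. The edgeR test on the 4 sums called 0 of the 76 at an adjusted p under 0.05, with 17 at an unadjusted p under 0.05. With the mouse as a block it called 14 (13 higher, 1 lower), against 1.94% and 1.88% of all genes in these directions. DESeq2 called 10, and the 8 sums of plates with the plate as a block gave 22. The log2 differences, SEs and adjusted p-values of single genes given below are from edgeR with the mouse as a block, and the medians of lists from the fit without it. Without the block none of these genes passed, and the smallest adjusted p among them was 0.18.

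Among 26 other class I and class I-like heavy chains, 14 could be tested, 2 rose and 1 fell with the mouse as a block, and the median log2 difference of the 14 was 0.33. The non-classical Qa-2 genes *H2-Q6* and *H2-Q7* rose, *H2-Q6* from 5.47 and 7.01 to 27.4 and 23.1 CPM (log2 difference 2.02 ± 0.23, adjusted p = 0.018) and *H2-Q7* from 7.32 and 10 to 32.5 and 36.0 CPM (1.99 ± 0.17, adjusted p = 0.011). These are near-identical copies, so their division between the 2 genes is uncertain. *Fcgrt*, which encodes the heavy chain of the neonatal Fc receptor, fell from 85.7 and 125 to 16.7 and 32.9 CPM (log2 difference -2.14 ± 0.15, adjusted p = 0.0080). *Hfe*, a class I-like regulator of iron uptake, stood at 138 and 176 CPM without TNF and 78.1 and 120 CPM with it (-0.68 ± 0.12, adjusted p = 0.050) and did not pass. No chain of this list came near the relative difference of *H2-M2*, and the other 10 genes of the H2-M region on it stayed at or below 0.107 CPM in all 4 sums.

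Of 9 genes for peptide trimming and loading cofactors, 0 passed in edgeR with or without the block of mice and 0 in DESeq2, while 2 passed over the 8 sums of plates with the plate as a block, *Calr* (adjusted p = 0.0083) and *Lap3* (adjusted p = 0.019). Their median log2 difference was 0.19. *Tapbpl*, a relative of *Tapbp* that edits peptides outside the loading complex, stood at 22.8 and 19.8 CPM without TNF and at 33.5 and 46.0 CPM with TNF (0.89 ± 0.20, adjusted p = 0.081). *Lap3*, an aminopeptidase, differed by 0.58 ± 0.12, the chaperones *Calr* and *Canx* by 0.43 ± 0.09 and -0.04 ± 0.09, and the hydrolase *Blmh* by -0.38 ± 0.15.

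Of 4 further genes of the immunoproteasome and its activator, 2 rose and the median was 0.66. The third inducible subunit *Psmb10* stood at 167 and 189 CPM without TNF and at 294 and 362 CPM with it (log2 difference 0.88 ± 0.10, adjusted p = 0.019), and the activator subunit *Psme2* at 101 and 87.2 CPM and at 166 and 182 CPM (0.89 ± 0.13, adjusted p = 0.031). *Psme1* and the assembly factor *Pomp* differed by 0.45 ± 0.10 and 0.36 ± 0.10 and did not pass, although all 4 did over the sums of plates. Of the 14 constitutive proteasome subunits, 2 rose, the catalytic subunits *Psmb5* (0.75 ± 0.10, adjusted p = 0.028) and *Psmb6* (0.75 ± 0.09, adjusted p = 0.022), and the median of the 14 was 0.25. *Psma4* and *Psmb3*, at the low end, differed by 0.15 ± 0.10 and 0.15 ± 0.12. DESeq2 called none of the 14, with an adjusted p of 0.17 and 0.081 for *Psmb5* and *Psmb6*, and the sums of plates gave 4.

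Of 16 regulators of class I transcription, 2 rose, both NF-kappaB subunits. *Relb* stood at 7.65 and 11.7 CPM without TNF and at 37.4 and 52.7 CPM with it (2.23 ± 0.15, adjusted p = 0.0074), and *Nfkb2* at 16.2 and 25.4 CPM and at 54.6 and 68.3 CPM (1.59 ± 0.14, adjusted p = 0.012). *Nlrc5*, the class I transactivator, stood at 26.7 and 40.5 CPM and at 23.4 and 47.1 CPM, and *Creb1* and *Nfyb* differed by -0.20 ± 0.13 and -0.10 ± 0.21. The median of the list was 0.05. Of 12 interferon response genes, 1 rose, the GTPase gene *Gbp2*, from 24.9 and 40.5 to 88.6 and 175 CPM (1.97 ± 0.13, adjusted p = 0.0074). The median of that list was -0.16, with *Usp18* at 0.35 ± 0.26, *Ifit3* at -0.24 ± 0.13 and *Oasl2* at -0.37 ± 0.12. Of 7 genes of MHC class II presentation, 4 rose, and the median was 1.15. *H2-Aa* stood at 244 and 444 CPM without TNF and at 682 and 1276 CPM with it (1.5 ± 0.09, adjusted p = 0.0069), and *H2-Eb1*, *Cd74* and *H2-Ab1* differed by 1.57 ± 0.10, 1.32 ± 0.12 and 1.2 ± 0.11 on the log2 scale. DESeq2 called only *H2-Aa* and *Cd74* of these, with an adjusted p of 0.052 for *H2-Eb1* and 0.14 for *H2-Ab1*. The class II transactivator *Ciita* (0.37 ± 0.27) and the class II editor subunit *H2-DMa* (0.06 ± 0.11) did not pass.

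**Figure D5:**
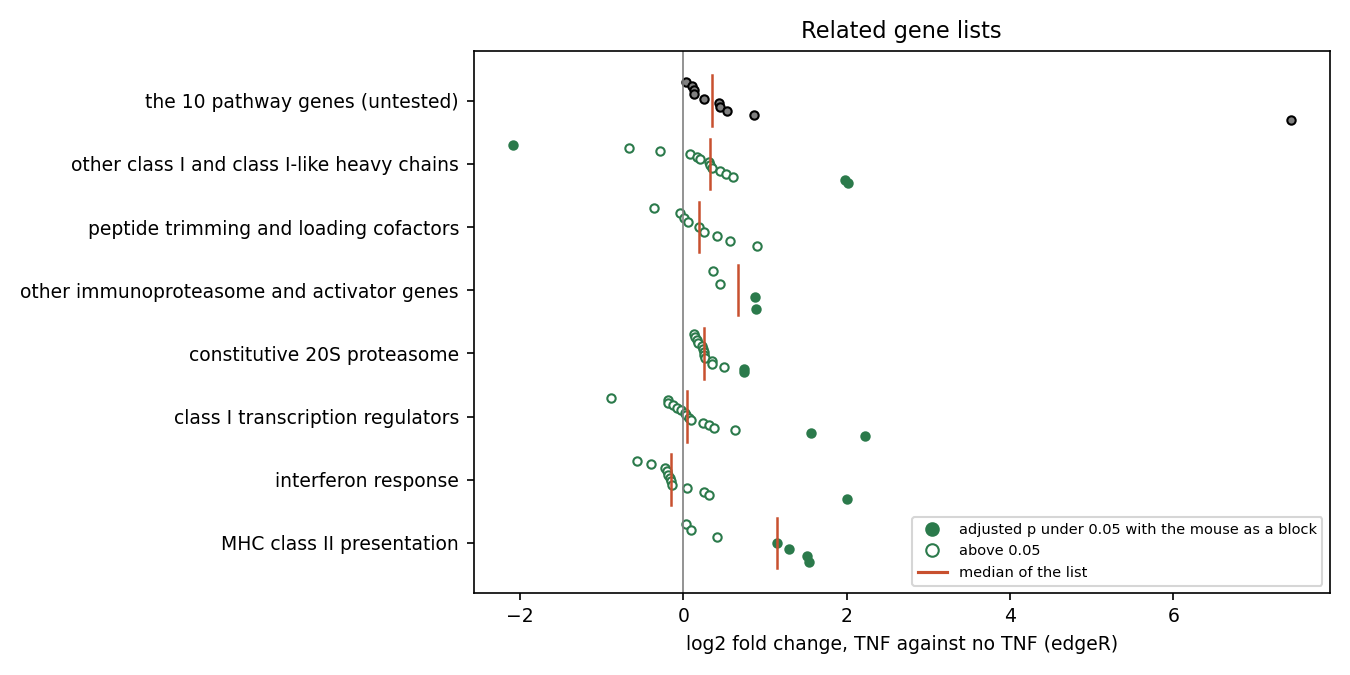
Log2 fold change of TNF against no TNF (edgeR on 4 sums) for each gene tested in each list, filled where the adjusted p was under 0.05 with the mouse as a block, with a line at the median of the list. The 10 pathway genes, in grey and without a test, have a median of 0.35 with *H2-M2* alone at 7.44, and the medians of the other lists run from -0.16 to 1.15.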

How the data were processed

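Single BMDMs of 2 mice were profiled with Smart-seq2 and 50 bp paired-end reads. The authors deposited counts of uniquely mapped fragments per gene and well, aligned with gsnap to mm10 and assigned to Ensembl 98 genes by featureCounts 1.6.3 without use of the strand, with no normalization. These counts hold PCR copies, since the protocol has no molecular identifiers. The 92 spike-in rows were left out, and so were 8 columns without a matching label. Treatment and plate were taken from the labels, and a number in the labels was read as the mouse. The study's text speaks of 2 independent experiments. The 4 samples with no such number in their label were put in no group.

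Wells were removed per plate for a log total or gene number under the plate median by over 3 median absolute deviations, or for a mitochondrial or spike-in share over it by as much. No doublet caller was run on these sorted cells. The counts of kept wells, added up for each mouse under each treatment, were tested in R 4.3.3 with edgeR 4.0.16 (glmQLFit, glmQLFTest, TMM, treatment as the only term, Benjamini-Hochberg adjustment over 17034 genes present in 5% or more of the cells of a treatment and passing filterByExpr). Mice and the interaction were tested on sums per plate and treatment. The numbers read as mice pair the samples, since both treatments carry the same numbers and shared plates. That both treatments of a number came from the same animal is a reading of the labels. The deviations of mouse 1 from the treatment means correlated between treatments with r = 0.568 over these genes. Alternatives were the mouse as a block, DESeq2 1.42.0, plate sums, library size, no gene filter, limma 3.58.1 on log2(CPM + 1) of mean CPM per cell, other well filters, and leaving out each sum or plate. With 2 mice against 2 an exact permutation test of a single value cannot go below 0.333, so shares of cells carry intervals (Clopper-Pearson) and no test. The fits were first tested on simulated data.

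CPM of sums used the TMM-adjusted library sizes of the tested genes, and CPM of single cells used their own totals. TPM were computed from the sums with the exon lengths in the count table. Shares of cells used cells thinned to 339000 fragments, the 10th percentile of kept totals, which left 1250 cells and left out 25 and 24 cells without TNF and 44 and 43 with TNF. Promoters were read from RefSeq windows on GRCm38.p6. Sequence sharing was counted over 50-base stretches of each gene's longest coding transcript. Tables and plots were made in Python 3.11.15 (matplotlib 3.10.9, pandas 2.3.3, scipy 1.17.1, numpy 2.4.6). Named were all 10 genes, for each pathway list its called genes and the 2 highest and 2 lowest by log2 difference among genes of at least 10 CPM, and the 5 genes most like *H2-M2* and *H2-K1* across cells. *Nlrc5*, *Clec4e*, *Calr* and the marker genes were named outside this rule, after their values were seen. The genes and lists were chosen with earlier results of these data known.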

Additional observations from a re-analysis of the deposited data

Results flagged for a closer look

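*H2-M3* stood out because the plates of mouse 1 were lower and those of mouse 2 higher with TNF. The TNF difference was 0.73 ± 0.21 larger in mouse 2 on the log2 scale. This is a description with no p-value, because the genes were chosen on values by plate.

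Signal for *H2-M2* was also seen outside the comparison, in 3 wells whose label names IL4+IL13 but no mouse. They lay in row P of plates 3, 4 and 5, among the rows that otherwise held TNF-treated cells. *H2-M2* reached 60.8 CPM (17 fragments), 104 CPM (37 fragments) and 80.3 CPM (7 fragments) in them, above the 0.402 and 1.08 CPM of the IL4+IL13 sums. These wells had 10802, 11121 and 8314 detected genes from 279461, 354874 and 87198 fragments, against medians of 7431 to 8161 genes from 447264 to 490310 fragments in kept cells, and how many cells each held is not given in the labels. *Clec4e* stood at 279, 603 and 103 CPM and *Retnla* at 0, 5.64 and 0 CPM in the same wells. What these wells received was not tested. The fourth such sample was not analysed here.

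The values of the 10 genes over the 4 plates were also searched for a plate far from the others under each treatment. Of 20 such groups 0 had one, where about 1.0 would be found by chance.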

How the results depend on the processing

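Counts of calls between the treatments depended on the model. The edgeR test without the block called 1 gene, and called 651 genes with the mouse as a replicate block, 598 in DESeq2, 1682 with plate sums and 4 to 30 when 1 sum was left out, where the lone sum is taken to vary like the pair of the other treatment. Of the 10 genes it called 0, and 4, 2 and 6 in these alternatives and 1 in each fit without 1 sum (1 to 1). Of the 76 related genes it called 0, and 14, 10 and 22. The block shares the spread of each mouse between treatments. The causes of the differences between tools were not tested. Fold changes moved less. Of 120 refits of the 10 log2 differences 112 kept their direction. *H2-M3* turned to -0.06 with library size, -0.07 with mean CPM per cell, -0.01 with the fixed well filter, -0.02 with no filter on wells, and -0.21 to 0.32 (-0.08 among them) without 1 sum. *Tap1* turned to -0.05 with mean CPM per cell and *Psmb9* gave -0.01 to 0.22 without 1 sum. *H2-M2* ranged from 6.08 to 8.32 and *Tapbp* from 0.73 to 1.03. Scaling by library size, without the TMM adjustment, moved the median of all genes by -0.09. The small differences shrank with it, to 0.17 for *H2-D1*, 0.03 for *Tap1*, 0.04 for *Tap2* and 0.02 for *Psmb9*. The share of cells with *H2-M2* was 34.3 percentage points higher with TNF on average, 26.3 when at least 5 fragments were required and 29.8 to 38.8 without 1 sum. The mouse contrast called 0 to 2 of the 10 genes when 1 plate was left out, an alternative added after seeing the data. It kept 3 in DESeq2, with library size and with no filter on wells. In DESeq2 this contrast called 2393 of the 17034 genes tested higher in mouse 2 and 2281 lower. For the other fits the shares of all genes called are not given, and leaving out a plate leaves 1 mouse with 1 plate. Nothing about the 10 genes is read from these counts. *Tap2*, *Tap1* and *H2-M3* had no fragment in a part of the cells, where a lack of the transcript and a miss at this depth cannot be told apart, and 2 mice limit every test.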

Other observations

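Within TNF-treated cells alone, a choice made after seeing the data, correlations were taken over the 303 and 306 cells of equal depth. Of 10115 genes, the highest values with *H2-M2* were those of *Csf2rb* (mean rho 0.24), a cytokine receptor chain, *H2-Ab1* (0.22), *Itgax* (0.21), an integrin chain, *Tbc1d8* (0.20) and *H2-Aa* (0.19). In the same cells *H2-K1* was followed by *B2m* (0.50), *H2-D1* (0.42), *H2-T23* (0.28), *H2-Q7* (0.28) and *H2-T22* (0.26), all of them class I genes. These cells share their plates, and the values are a description. The range over all genes was not computed for TNF-treated cells alone, so the low values for *H2-M2* are no finding.

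At least 1 fragment of each of the 10 genes was found in 4.52% and 2.91% of cells without TNF and in 19.1% and 14.4% of cells with TNF at equal depth. The median cell held 8 of the 10 without TNF and 9 with it. A cell can hold all 10 only if it holds *H2-M2*, the rarest of them. Of the 39 and 22 cells with *H2-M2* without TNF, 15 and 9 held all 10. With TNF it was 58 of 146 and 44 of 120. No joint change of the 10 genes is read from these shares.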
